A study of Mus musculus with 24 samples.

Results

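The genes described here encode the proteins of the cytosolic ribosome in mouse. They were chosen by name from the gene identifiers in the deposited tables: names that start with Rpl or Rps followed by a digit, plus Rplp0, Rplp1, Rplp2 and Rpsa, without pseudogenes marked -ps and without the S6 kinases (Rps6k). The rule found 89 of 35976 genes. Of these, 77 are ribosomal proteins proper, with 43 of the large subunit, 31 of the small subunit and 3 of the stalk. Another 11 are paralogs or retrocopies of ribosomal protein genes (Rpl3l, Rpl7l1, Rpl10l, Rpl22l1, Rpl32l, Rpl36al, Rpl37rt, Rpl39l, Rps4l, Rps27l and Rps27rt). The remaining gene, Rps19bp1, is named for a protein that binds Rps19 and is not part of the ribosome. Fau and Rack1 encode ribosomal proteins under other names and are given separately.

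The RNA came from CT26, a mouse colon carcinoma line of BALB/c origin, with or without knockout of Sun1, which spans the inner nuclear membrane and helps to couple the nucleus to the cytoskeleton. The study sequenced mRNA-enriched libraries from 3 settings. Cultured cells, in RPMI medium with serum, gave 1 library each of the knockout line, control line 1 and control line 2. Whole tumors, grown under the skin of BALB/c mice for 14 days from injected cells, gave 7 knockout and 8 control libraries, the latter all from control line 1. Tumor cells purified from such day 14 tumors with an isolation kit gave 2 libraries each of the knockout line, control line 1 and control line 2. The labels give the control lines as wild type and name no treatment in any group. There was 1 knockout line, so the effect of the knockout and the history of that line cannot be told apart. The labels do not say whether replicates of a group are separate animals, so p-values cover the spread among these libraries and no more.

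A ribosome is built from ribosomal RNA and 1 copy of nearly every ribosomal protein, and the proteins are assembled onto the RNA largely in the nucleolus. The mRNAs of these proteins are among the most abundant in growing cells. They are short, and most begin with a terminal oligopyrimidine (TOP) motif, a C followed by a run of C and T at the very start of the transcript, through which mTORC1 and Larp1 control their translation. Free ribosomal proteins such as Rpl5 and Rpl11 can bind Mdm2 and so link ribosome assembly to p53.

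The annotated starts of 8 members are shown because the results below turn on these genes: Rpl41, Rpl38 and Rps28 had some of the largest differences in knockout tumors, Rps27 and Rpl28 the largest in purified against cultured cells, Rpl4 differed little in tumors, Rpl39 was the member called lower in purified knockout cells, and Rpl36al is a paralog. Each line gives 60 bases of RefSeq sequence (GRCm38.p6), 5′ to 3′ on the strand of the gene, from 40 bases before to 20 bases after the start. Capitals mark CTTTC or its reverse complement GAAAG, and CCGGAAG or its reverse complement CTTCCGG.
Rpl41, chr10:128549149-128549208, minus strand: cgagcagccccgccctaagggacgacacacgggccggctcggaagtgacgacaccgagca
Rpl38, chr11:114668540-114668599, plus strand: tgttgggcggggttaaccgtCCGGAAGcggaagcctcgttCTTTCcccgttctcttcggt
Rps28, chr17:33824543-33824602, minus strand: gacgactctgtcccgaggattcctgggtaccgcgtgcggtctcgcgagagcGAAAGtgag
Rps27, chr3:90213629-90213688, minus strand: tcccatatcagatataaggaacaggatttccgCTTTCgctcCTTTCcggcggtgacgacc
Rpl28, chr7:4792925-4792984, plus strand: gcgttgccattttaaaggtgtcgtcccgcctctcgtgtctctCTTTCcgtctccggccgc
Rpl4, chr9:64173347-64173406, plus strand: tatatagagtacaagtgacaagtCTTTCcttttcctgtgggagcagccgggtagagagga
Rpl39, chrX:37085203-37085262, minus strand: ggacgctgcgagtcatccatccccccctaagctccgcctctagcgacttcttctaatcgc
Rpl36al, chr12:69184048-69184107, minus strand: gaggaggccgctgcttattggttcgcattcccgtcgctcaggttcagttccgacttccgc

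RefSeq starts were matched for 68 of the 89 members, 57 of them ribosomal proteins proper. CTTTC, a run that occurs at many oligopyrimidine starts, was present on the gene's strand in this 60-base window in 20 of the 57 genes (35.1%), against 8.1% of 32851 mouse promoters in the same table. CCGGAAG, the core bound by ETS factors, was present on either strand within 300 bases in 24 of the 57 (42.1%), against 8.9% of all promoters. The CTTTC run was found in 12 of the 35 of these genes called higher in knockout tumors and in 8 of the 22 not called.

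Libraries held between 14140769 and 24651279 expected counts. Sun1 itself was at 51.1 to 65.4 CPM (counts scaled to a common library total) in knockout tumors and at 172 to 189 CPM in control tumors, and it was also lower in every purified and cultured knockout library. The leukocyte markers (4 genes) summed to 427 to 681 CPM in knockout tumors, 234 to 447 CPM in control tumors and 1.36 to 6.9 CPM in purified cells, so the purified libraries held little leukocyte RNA. The epithelial markers (Krt8, Krt18, Epcam and Cdh1) summed to 69.5 and 118 CPM in the cultured control lines, 28.9 to 55.8 CPM in purified controls and 10.9 to 15 CPM in control tumors. In the knockout they summed to 0.83 CPM in culture, 0.718 to 0.725 CPM in purified cells and 2.28 to 4.55 CPM in tumors. Krt18 made up most of the sum in cultured and purified controls, and Epcam was at 0 in all cultured and purified libraries. In the whole tumors, RNA of CT26 cells and of host cells is mixed, and fewer cells of a type cannot be told apart from less RNA per cell.

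Members took up between 5.63% and 11.08% of all expected counts in a library. In culture the share was 6.42% in control line 1, 5.63% in control line 2 and 6.73% in the knockout line. In purified cells it was 8.18% and 8.31% in control line 1, 8.92% and 7.68% in control line 2, and 7.71% and 7.09% in the knockout. In control tumors it ran from 7.41% to 9.52% with a mean of 8.70% ± 0.73 (SD, n = 8). In knockout tumors it ran from 9.26% to 11.08% with a mean of 10.1% ± 0.63 (SD, n = 7). Knockout tumors were thus on the high side with some overlap, purified knockout cells were on the low side with some overlap, and cultured libraries lay below all others. On the authors' TPM scale, which divides by transcript length, members made up 26.8% to 31.4% of control tumor libraries and 28.5% to 31.6% of knockout tumor libraries, so the tumor groups overlapped almost fully on that scale.

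**Figure D1:**
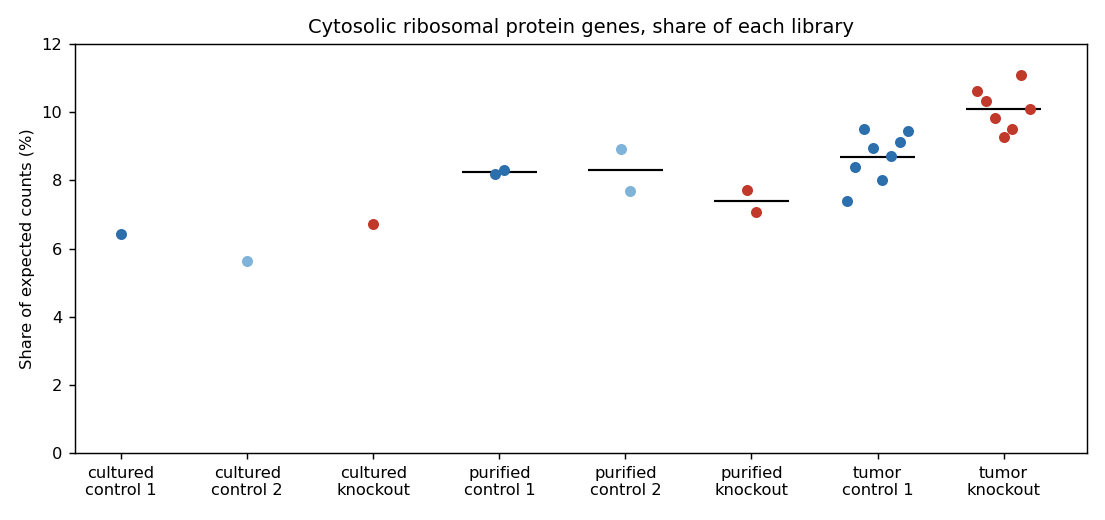
Share of all expected counts (%) that fell on the 89 cytosolic ribosomal protein genes, 1 point per library, in 8 groups; black lines are group means where there is more than 1 library. Cultured libraries lie at 5.63% to 6.73%, knockout tumors at 9.26% to 11.08%.

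Levels per length differed widely between ribosomal proteins proper, although the ribosome holds nearly equal numbers of each. Rplp1, of the stalk that recruits translation factors, was highest with a mean of 12110 TPM over the tumors, 10720 TPM in purified and 8668 TPM in cultured cells. Rps27 and Rps26, both of the small subunit, followed at 8747 and 8741 TPM in tumors. The median member was at 3148 TPM in tumors. The lowest was Rps15a at 202.7 TPM. Its mean transcript length in the deposited tables was 5136 bases, against a median of 734 bases over the 77 genes. Rps20 (3446 bases) and Rpl22 (2204 bases) were also low on this scale. These values depend on which isoforms the authors' tables assign reads to. Expected counts of 34 members were not whole numbers (tolerance 0.005) in at least 1 library, which means that reads were split between near-identical sequences; Rps27a was among them in all 24 libraries.

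In whole tumors, ribosomal protein genes were higher in the knockout as a group at the scaling used here. The group's median fell to near 0 when libraries were scaled along transcript length. Of 86 members tested, 52 were called higher and 0 lower (edgeR quasi-likelihood test, Benjamini-Hochberg adjusted p under 0.05 over all 13752 genes tested). In the background 18.1% of genes were called higher and 19% lower. The members' median log2 fold change was 0.25, against 0.01 over all genes. When a smooth curve of transcript length was removed in each library, an alternative chosen after seeing the data, 9 members were called higher and 18 lower, with a median of -0.03. For scale, each library's median over ribosomal proteins proper had an SD of 0.176 among control and 0.116 among knockout tumors at the main scaling. Under that scaling 16.7% of all genes were called higher and 15.9% lower.

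By subunit, 22 of 31 small subunit genes were called higher, with a median of 0.27, and 23 of 43 large subunit genes, with a median of 0.24. The strongest large subunit member was Rpl41, which encodes a very short basic peptide. Rpl41 ran from 930.6 to 1511 CPM with a median of 1037 in knockout tumors, and from 409.7 to 799.4 CPM with a median of 687 in control tumors. The groups did not overlap, and the log2 fold change was 0.715 ± 0.126 (SE; edgeR adjusted p = 0.000401). Rpl38, known for its part in translating Hox mRNAs in the embryo, ran from 236.8 to 390.2 CPM in knockout tumors (median 263.8) and from 118.3 to 231.8 CPM in control tumors (median 196.4). It rose by 0.65 ± 0.16 (edgeR adjusted p = 0.00461), again without overlap.

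Among small subunit genes, Rps28 had the largest difference. It ran from 352.5 to 547.2 CPM in knockout tumors (median 399.0) and from 169.5 to 348.0 CPM in control tumors (median 310.0), and it rose by 0.58 ± 0.14 on the log2 scale (edgeR adjusted p = 0.0044). Rps27a, made as a fusion with ubiquitin, ran from 761.3 to 1092 CPM against 475.2 to 713.0 CPM and rose by 0.50 ± 0.09 (edgeR adjusted p = 0.000389). Rps14 rose by 0.44 ± 0.08 (edgeR adjusted p = 0.000419), and Rps20 by 0.44 ± 0.08 (edgeR adjusted p = 0.000523). In 8 members, Rpl18, Rpl38, Rpl41, Rps7, Rps14, Rps27a, Rps28 and the paralog Rps27l, every knockout tumor lay above every control tumor, and in 0 did every knockout tumor lie below. In the background, 3.26% of tested genes had all knockout values above all control values.

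The stalk genes differed among themselves. Rplp0, the stalk base, ran from 2303 to 2665 CPM in knockout and from 2313 to 2694 CPM in control tumors, a log2 difference of -0.01 ± 0.06 (edgeR adjusted p = 0.908). Rplp1 was called higher at 0.25 ± 0.09 (edgeR adjusted p = 0.0374), as was Rplp2 at 0.29 ± 0.11 (edgeR adjusted p = 0.0469). Rplp0 is often used as a reference gene in PCR assays, and its transcript of 1360 bases is longer than those of Rplp1 (468) and Rplp2 (444).

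At the other end of the order, 9 ribosomal proteins proper had negative values in tumors, none of them called. The lowest was Rpl39 at -0.23 ± 0.11 (edgeR adjusted p = 0.0926). Rpl3, which reaches into the peptidyl transferase center, was at -0.12 ± 0.07 (edgeR adjusted p = 0.152). Rpl4, whose loop lines the exit tunnel, ran from 2119 to 2566 CPM in knockout and from 2157 to 2864 CPM in control tumors (log2 fold change -0.05 ± 0.07, edgeR adjusted p = 0.595). Rpl28 was at -0.04 ± 0.06 (edgeR adjusted p = 0.642).

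**Figure D2:**
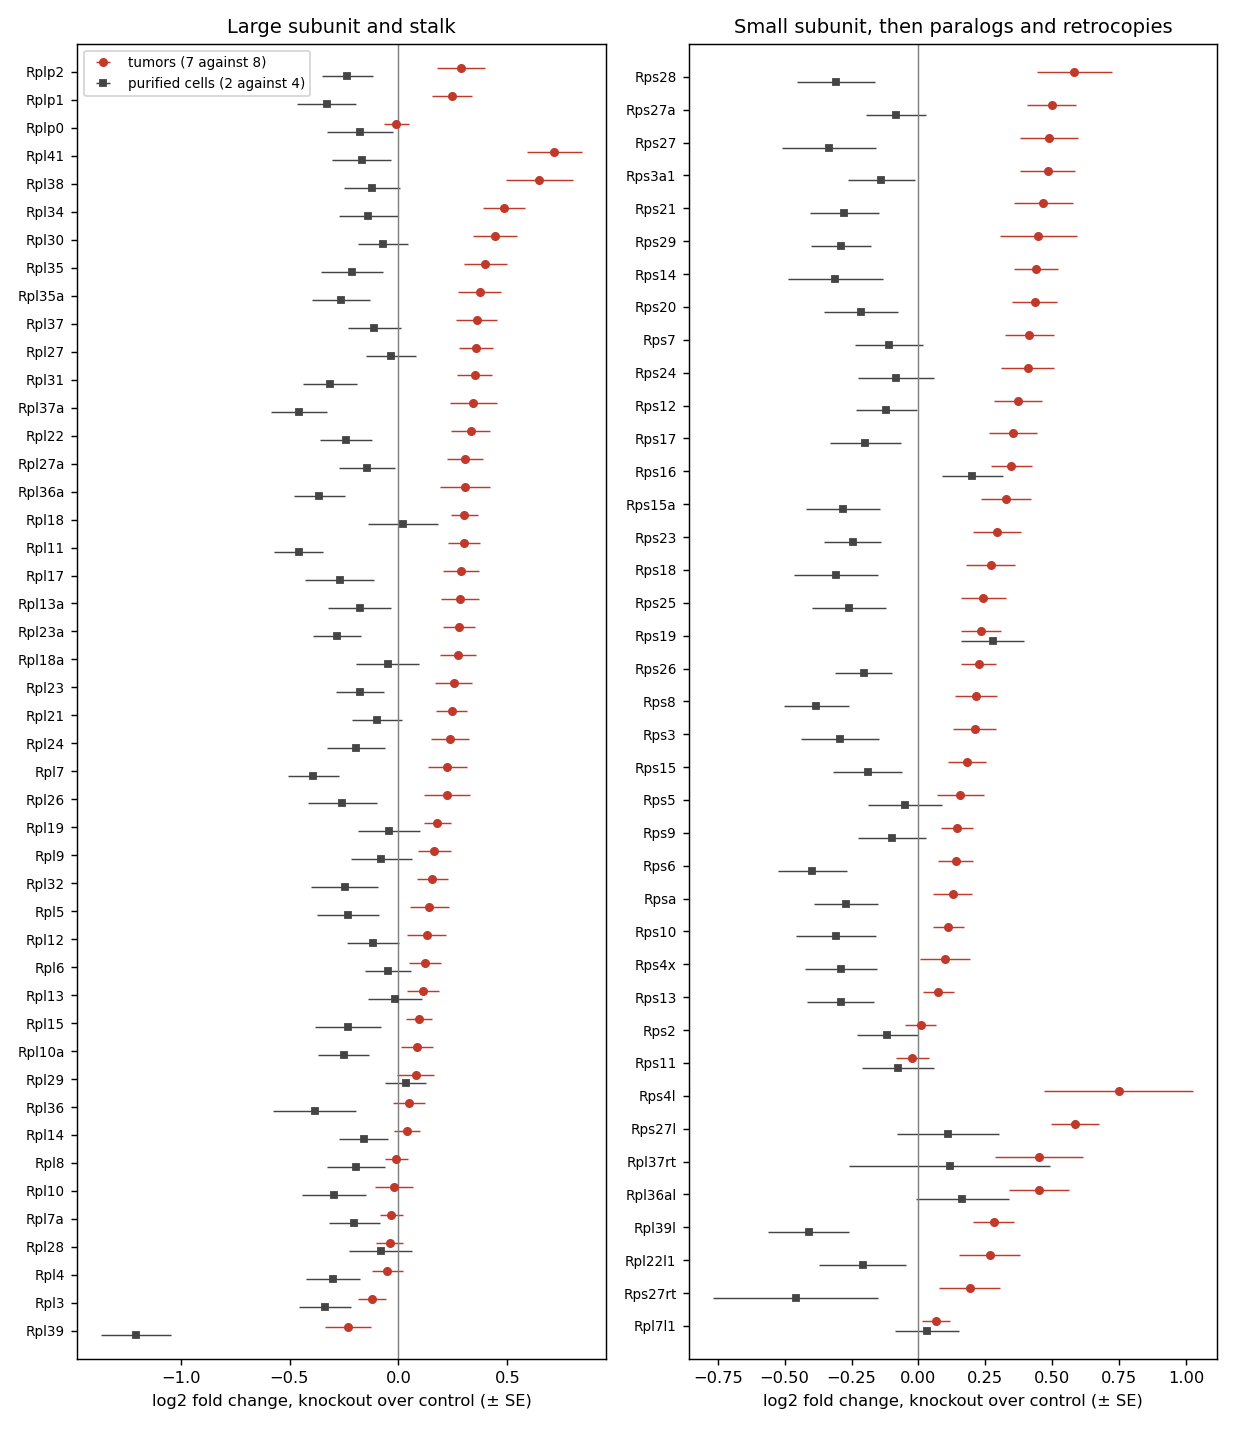
Log2 fold change with its standard error, knockout over control, for each ribosomal protein gene and paralog tested, in tumors (circles, 7 against 8 libraries) and in purified cells (squares, 2 against 4); genes are ordered within classes by the tumor value. Most tumor values lie above 0 at this scaling (with scaling along transcript length the median of all 86 tested is near 0, at -0.03). Most purified values lie below 0, with Rpl39 at -1.20.

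Transcript length moved with the tumor difference in members and non-members alike. Among the 77 ribosomal proteins proper, Spearman's rho between transcript length and log2 fold change was -0.32, and over 13666 other genes it was -0.30. All these values come from the same libraries, so the genes are not independent. The 925 tested non-members under 1000 bases had a median of 0.29, with 434 called higher and 39 lower. Those over 4000 bases had a median of -0.10. Of 136 short non-members with at least 100 CPM, 76 were called higher and 9 lower, with a median of 0.24, close to the members' 0.25. Under scaling along length, Rpl41 stayed called at 0.30 (edgeR adjusted p = 0.00573) and Rps27l at 0.22 (edgeR adjusted p = 0.00266).

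**Figure D3:**
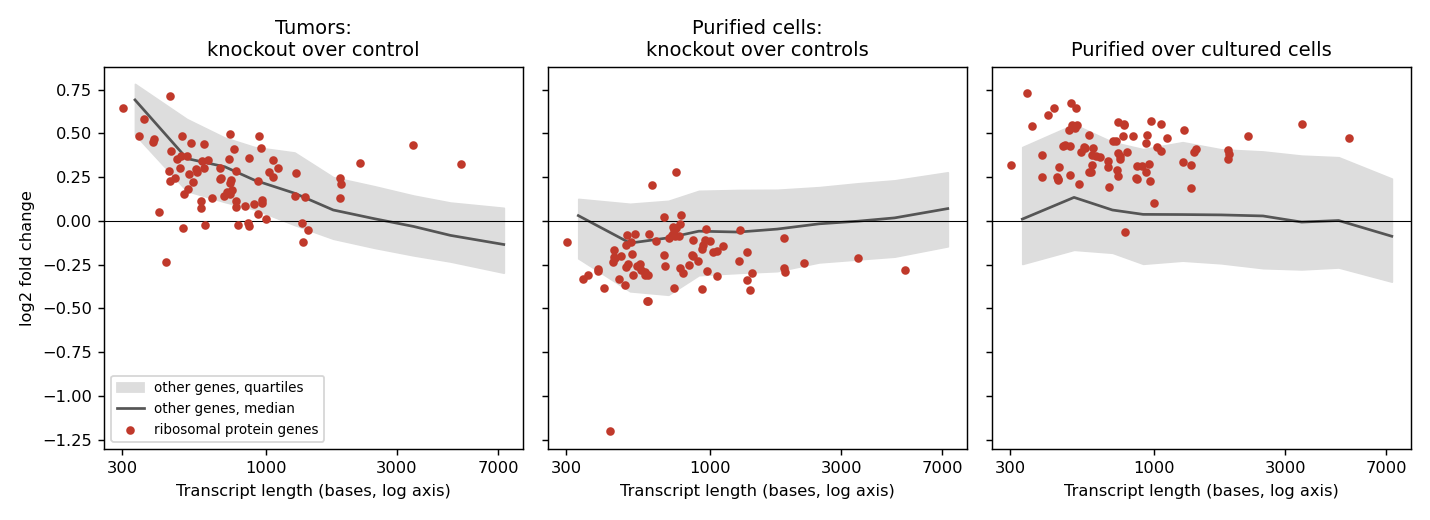
Log2 fold change against transcript length (bases, log axis) for the 77 ribosomal proteins proper (red points) and all other tested genes (line, median per length class; band, quartiles), in 3 comparisons. In tumors the red points follow the line of the other genes, whose median falls from 0.36 between 400 and 600 bases to -0.14 from 6000 bases on. With scaling along transcript length the members' tumor median is near 0, at -0.03. In purified over cultured cells most red points lie above the line.

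Markers of some host cells also moved with the tumor groups, and others did not. The 4 leukocyte markers were all called higher in knockout tumors, as were 5 of 5 T cell and 1 of 1 tested B cell markers. Higher too were 2 of 6 macrophage, 2 of 4 endothelial, 1 of 4 natural killer and 3 of 4 skeletal muscle markers. Of the fibroblast markers 1 of 4 was called higher and 1 lower. Their sum was 781 to 1310 CPM in knockout and 1040 to 1550 CPM in control tumors. Erythroid markers had 0 of 3 called. Over all genes 18.1% were called higher and 19% lower. The mean log2 CPM of Ptprc and Pecam1, markers of leukocytes and endothelium, ran from 6.40 to 6.86 in knockout and from 5.59 to 6.21 in control tumors, without overlap. With that mean as a covariate 0 of the members were called, as were only 44 higher and 173 lower of 14920 genes, while the members' median was 0.31 and 79 had positive values. Genotype accounted for 75.8% of the variance of the covariate, so this 2-gene measure of host content and genotype cannot be told apart in these tumors.

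In purified tumor cells, the group leaned the other way, and Rpl39 was the member that changed. Of 85 members tested, 0 were called higher and 1 lower, with 2.26% of 12476 genes called higher and 2.29% lower in the background (edgeR). Their median log2 fold change was -0.21, against -0.02 over all genes, and 77 of the 85 values were negative, against 6465 of 12476 over all genes. At an unadjusted p under 0.05 there were 19 members (22.4%), near the 21.8% of all genes at that threshold. Leukocyte markers were also on the low side in the purified knockout: their sum was 1.36 to 2.39 CPM against 2.47 to 6.9 CPM in the controls, with 4 of 4 values negative (median -1.58) and 0 called (edgeR; 2 at an unadjusted p under 0.05). All 6 macrophage markers had negative values too (median -1.44), again with 0 called (edgeR, with 2 at an unadjusted p under 0.05). Their sum was 4.4 to 4.74 CPM against 8.79 to 16.8 CPM. Endothelial markers had 2 of 2 tested negative and 0 called. Other lists did not fall in this way. Skeletal muscle markers had 2 of 2 tested positive and 1 called higher, with a sum of 2.04 to 29.1 CPM against 0.179 to 0.944 CPM. Fibroblast markers had 1 of 4 called higher and 3 negative without a call. The 1 erythroid marker tested was positive, without a call. The part of these markers in the members' values was not tested. The median stayed negative under each scaling tried, at -0.12 with scaling along transcript length, where short non-members were at 0.00. The count rests on the handling of the control lines: with the 3 lines as separate groups and the knockout set against the mean of both controls, 16 members were called lower and 1 higher, where 10.1% of all genes were called lower and 10.5% higher. DESeq2 called 4 members lower, and 4.61% of all genes.

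After Rpl39, Rpl11 came closest to the threshold. Rpl11 was at 504.9 and 494.3 CPM in the purified knockout, at 718.9 and 696.2 CPM in control line 1 and at 726.6 and 614.8 CPM in control line 2. Every knockout value was below every control value, and the log2 fold change was -0.46 ± 0.11 (edgeR adjusted p = 0.0557). Rpl37a, Rpl7 and Rpl36a had values of -0.46, -0.39 and -0.36, none called. The highest value was that of Rps19, a gene mutated in Diamond-Blackfan anemia, at 611.0 and 559.2 CPM in the knockout against 448.9 to 548.0 CPM in the 4 controls (0.28 ± 0.12, edgeR adjusted p = 0.203). Rps16 was at 0.20 ± 0.12, and only Rpl18 and Rpl29 of the other ribosomal proteins proper were above 0.

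Rpl39, one of the smallest ribosomal proteins, lines the tunnel through which the new peptide leaves the ribosome. In purified cells it was at 262.0 and 236.1 CPM in the knockout, at 505.0 and 559.5 CPM in control line 1 and at 715.3 and 524.1 CPM in control line 2. Both knockout libraries were thus below every control library, and the log2 difference was -1.20 ± 0.16 (edgeR adjusted p = 0.00389). In culture it was at 190.0 CPM in the knockout, 372.6 CPM in control line 1 and 305.8 CPM in control line 2. In whole tumors RNA of CT26 and host cells is mixed, and the part of host cells in Rpl39 was not tested. There the 7 knockout values ran from 430.1 to 549.2 CPM (median 474.0). The 8 control tumor values ran from 433.3 to 709.0 CPM (median 586.4), with overlap. With scaling along length Rpl39 was at -1.08 in purified cells (edgeR adjusted p = 0.00112) and at -0.64 in tumors (edgeR adjusted p = 1.61e-07). Without either of the purified knockout libraries the call was lost, with adjusted p-values of up to 0.0998. In the authors' deposited table for purified cells Rpl39 was at -1.22, as knockout over control, with an adjusted p of 3.59e-10.

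Rpl39 lies on chromosome X from 37082518 to 37085222 (GRCm38.p6), and the genes around it were lower in the knockout too. This was looked for after the value of Rpl39 had been seen. All 5 tested genes on either side had negative values in purified cells, with a median of -0.74, and 6 of these 10 were called lower (edgeR). They include Ube2a, which encodes a ubiquitin-conjugating enzyme (-1.14, adjusted p = 0.00378), Upf3b, of nonsense-mediated decay (-0.63, adjusted p = 0.0287), and Nkap (-0.75, adjusted p = 0.0138). Over the first 40 megabases of the chromosome, 82 of 84 tested genes were negative, 59 were called lower (70.2%) and the median was -1.0. From 40 megabases on, 9 of 246 genes were called lower and the median was -0.02, while autosomes had a median of -0.01.

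The same stretch was lower in the knockout against either control line, at medians of -0.99 and -1.0, and did not differ in that way between the control lines (median 0.02, 4 called higher and 0 lower). In culture the median of the stretch was -0.91, with 75 of 79 values negative, and in whole tumors it was -0.57, with 67 of 84 genes called lower. The other 3 members on chromosome X lie outside it. In purified cells Rpl10 was at -0.30, Rps4x at -0.29 and Rpl36a at -0.36, none called, where the median of all members was -0.21. The number of copies of this stretch in the lines was not tested.

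**Figure D4:**
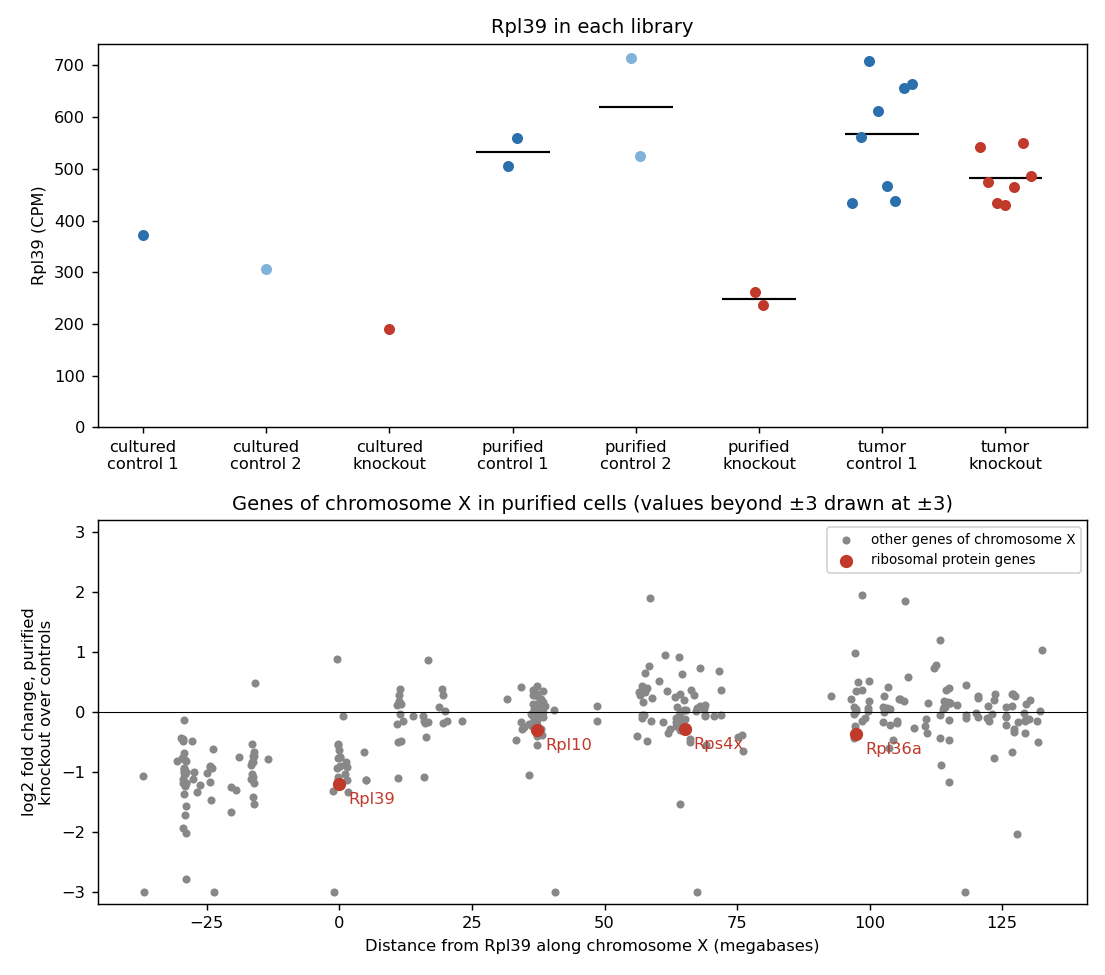
Top, Rpl39 (CPM) in each library by group, with group means as black lines where there is more than 1 library; the purified knockout libraries lie at 236.1 and 262.0 CPM, below all purified controls. Bottom, log2 fold change of each tested gene of chromosome X in purified cells, knockout over controls, against its distance from Rpl39 in megabases; ribosomal protein genes are red, and genes to the left of Rpl39 and shortly after it lie mostly near -1.

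The 2 control lines differed from each other in few members. In purified cells, control line 2 had 3 members higher and 2 lower than control line 1 of 85 tested, with 6.73% and 9.01% of genes called in the background (edgeR). Rpl36 was higher by 0.50 ± 0.12 (adjusted p = 0.014), and so were the paralogs Rps27l by 0.51 ± 0.12 (adjusted p = 0.0161) and Rpl36al by 0.47 ± 0.11 (adjusted p = 0.0143). Rpl18 was lower at 1215 and 1083 CPM against 1569 and 1496 CPM (-0.42 ± 0.11, adjusted p = 0.0218), as was the paralog Rpl22l1 at -0.43 ± 0.11 (adjusted p = 0.017). The median of members was 0.15, and it was 0.01 with scaling along transcript length. It was -0.02 without the first library of control line 2, and without the second 25 members were called higher, as were 7.76% of all genes.

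Set against each control line in turn, with the same knockout libraries in both, the purified knockout had 9 members lower and 3 higher than control line 1 and 25 lower and 0 higher than control line 2. The backgrounds were 10.1% lower and 8.32% higher for control line 1, and 10.5% lower and 11% higher for control line 2. Medians were -0.16 and -0.29. Rpl39 was called against each, at -1.09 (edgeR adjusted p = 0.00025) and -1.31 (edgeR adjusted p = 6.16e-05). Rpl11 was at -0.50 (edgeR adjusted p = 0.00741) and -0.42 (edgeR adjusted p = 0.0167). The members above control line 1 were Rps19 and the paralogs Rps27l and Rpl36al. Without the second library of control line 2, 51 members were called lower than that line (11.2% of all genes), and without the first, 2 (6.19% of all genes).

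In cultured cells 0 of 85 members were called (4 at an unadjusted p under 0.05, which is 4.71%, against 5.41% of all genes), with 0% of 12175 genes called higher and 0% lower in the background (edgeR). The fit compares 1 knockout library with 2 controls and has 1 residual degree of freedom. The members' median was 0.13, and 75 of 85 values were positive. The largest value was that of Rps19 at 0.60, from 529.8 CPM in the knockout against 366.7 and 329.9 CPM in the controls. The lowest were Rpl39 at -0.85 and Rps19bp1 at -0.57.

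The knockout effect differed between tumors and purified cells for a part of the members. The difference, tumor effect minus purified effect, was called higher for 30 of 86 members and lower for 0, with 3.64% and 4.63% of 15094 genes called in the background (edgeR, interaction of setting and genotype). It was positive for 84 members, with a median of 0.46, against 0.02 over all genes. The largest was that of Rpl39 at 0.97 ± 0.21 (adjusted p = 0.00685). Rps28 followed at 0.89 ± 0.26 (adjusted p = 0.0376) and Rpl41 at 0.89 ± 0.23 (adjusted p = 0.0227), and Rpl11 differed by 0.76 ± 0.14 (adjusted p = 0.00205). Tumors and purified cells share no library, and 67 of 85 members were positive in the former and negative in the latter, against 2387 of 12124 non-members.

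These differences also moved with length and rested on single libraries. Non-members under 1000 bases had a median difference of 0.39, and with scaling along transcript length 8 members were called higher and 1 lower, with a median of 0.09, where 2.82% of all genes were called higher and 3.01% lower. With control line 1 alone in both settings 16 were called higher (4.82% of all genes). Without the first purified knockout library there were 4 (0.919% of all genes), and without the second 1 (0.444%). Without the first library of purified control line 2 there were 11 (2.47% of all genes), and without the first knockout tumor or the fifth control tumor there were 15 (2.84%) and 17 (3.29%). Leukocyte markers moved with this difference, with 3 of 4 called higher and a median of 2.16, and their part in it was not tested.

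Between purified and cultured cells of all 3 lines, ribosomal protein genes were higher in the purified cells, and this difference did not follow transcript length. Of the 77 ribosomal proteins proper, 66 were called higher and 0 lower, and among all 85 members tested 66 were higher and 2 lower, with 22.1% and 21.4% of 12651 genes called in the background (edgeR). The median of members was 0.38, against 0.01 over all genes. Spearman's rho with length was -0.05 among the 77 genes. Short non-members had a median of 0.06, and with scaling along length 67 members were called higher, 64 of them the same genes, with a median of 0.34, where 23.1% of all genes were called higher and 23.2% lower. Fibroblast markers moved with the members: all 4 were called higher in purified cells, with a median of 3.69. Their sum was 576 to 2170 CPM in purified cells against 89.9 to 217 CPM in culture. The sum differed by line, at 1870 to 2170 CPM in purified control line 1 and 576 to 687 CPM in purified control line 2. Whole control tumors, from control line 1, held 1040 to 1550 CPM. Cultured cells had these mRNAs too, so the list does not stand for host fibroblasts alone. Of the endothelial markers, 2 of 2 tested were called higher, of the leukocyte markers 1 of 4 and of the macrophage markers 2 of 6, with 0 lower in these lists. The part of these markers in the members' difference was not tested. Growth in mice and passage through tumor dissociation and purification cannot be told apart here.

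Rps27 had the largest difference, from 215.0 to 277.7 CPM in culture and from 306.2 to 553.0 CPM in purified cells (0.73 ± 0.16, edgeR adjusted p = 0.00375). Rpl28 went from 620.5 to 973.6 CPM in culture to between 1163 and 1522 CPM in purified cells (0.67 ± 0.10, edgeR adjusted p = 0.000205). In both genes all 6 purified libraries were above all 3 cultured ones. Rpl39 was higher by 0.65 ± 0.13 (edgeR adjusted p = 0.00143) in a fit that pools the lines, with the knockout at 190.0 CPM in culture and 262.0 and 236.1 CPM after purification. Members not called among the 77 were Rpl7a, Rpl8, Rpl29, Rpl34, Rpl41, Rplp0, Rps2, Rps14, Rps21, Rps25 and Rps26, of which Rpl29 alone had a negative value (-0.06). Without the cultured library of control line 2, 35 members were called higher, as were 18.7% of all genes.

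Paralogs and retrocopies are copies of ribosomal protein genes, some with expression limited to certain tissues. Of 8 tested in tumors 5 were called higher, with a median of 0.37, where 18.1% of all genes were called higher. In purified against cultured cells 0 of 7 were higher and 1, Rpl7l1, was lower (-0.23 ± 0.08, edgeR adjusted p = 0.0364). Over all genes 22.1% were higher and 21.4% lower in that comparison. Rps27l, a p53-induced paralog of Rps27, ran from 140.6 to 194.3 CPM in knockout tumors and from 74.72 to 118.2 CPM in control tumors (0.59 ± 0.09, edgeR adjusted p = 6.1e-05). Its value in purified against cultured cells was -0.23 (edgeR adjusted p = 0.0513), against 0.73 for Rps27. Rpl36al rose in tumors by 0.45 ± 0.11 (edgeR adjusted p = 0.00437), and Rpl37rt, at 2.16 to 4.89 CPM over the tumors, by 0.45 ± 0.17 (edgeR adjusted p = 0.0373).

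Rpl39l, a paralog best known from the male germ line, rose in tumors by 0.28 ± 0.08 (edgeR adjusted p = 0.00839), where Rpl39 was at -0.23, and was at -0.41 in purified cells (edgeR adjusted p = 0.159). Rpl22l1 was at 0.27 ± 0.11 in tumors (edgeR adjusted p = 0.0725), and Rps27rt at 0.19. Rps4l was at 0.69 to 1.96 CPM in knockout tumors and 0.35 to 1.18 CPM in control tumors (0.75 ± 0.28, edgeR adjusted p = 0.04). This call was lost in 9 of 15 fits that left out 1 tumor library (edgeR adjusted p up to 0.0847). Rps4l was at 0 CPM in all cultured and all but 1 purified library. Rpl3l, Rpl10l and Rpl32l were too low to test, with at most 6 counts in any library, and Rpl32l had no count at all in the libraries used here. Rps19bp1 was lower in purified than in cultured cells (-0.51 ± 0.11, edgeR adjusted p = 0.00226) and was at -0.19 ± 0.09 in knockout tumors, without a call.

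Fau and Rack1, ribosomal proteins whose symbols fall outside the rule, were not called in tumors. Fau was at 0.11 ± 0.08 (edgeR adjusted p = 0.285) and Rack1, a signaling scaffold on the small subunit, at -0.10 ± 0.07 (edgeR adjusted p = 0.241). In purified against cultured cells both were called higher, Fau by 0.34 ± 0.11 (edgeR adjusted p = 0.0243) and Rack1 by 0.43 ± 0.13 (edgeR adjusted p = 0.0205).

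Several lists of other genes serve translation and energy supply. In tumors, mitochondrial ribosomal proteins had 32 of 77 genes called higher and 0 lower, with a median of 0.18, and nuclear genes of oxidative phosphorylation 53 of 76 higher and 2 lower, with a median of 0.30. All 13 mitochondrially encoded genes were called higher. Over all genes 18.1% were called higher and 19% lower in tumors. Among non-members under 1000 bases 46.9% were higher and 4.22% lower, with a median of 0.29. The part of transcript length in these lists was not tested. Translation factors and other genes known or thought to begin with an oligopyrimidine run had 7 of 29 higher and 3 lower, with a median of 0.05; Eif3l (-0.40 ± 0.07, edgeR adjusted p = 0.000162) and Impdh2 (-0.43 ± 0.08, edgeR adjusted p = 0.000526) fell. Ribosome assembly factors of the nucleolus had 13 of 59 higher and 4 lower, among them Nop58 (0.61 ± 0.08, edgeR adjusted p = 1.14e-05) and Nop14 (-0.41 ± 0.05, edgeR adjusted p = 1.08e-05).

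In purified cells, the oligopyrimidine list had a median of -0.23, close to the members' -0.21, with 24 of 29 values negative. Only Eif3l was called lower (-0.49 ± 0.11, edgeR adjusted p = 0.0411). Assembly factors were at a median of 0.12 with 0 of 59 called in either direction (edgeR; 16 at an unadjusted p under 0.05), and mitochondrial ribosomal proteins at -0.01 with 0 of 77 called (11 at an unadjusted p under 0.05), where 21.8% of all genes were at an unadjusted p under 0.05. RNA polymerase I genes had 2 of 15 called higher, Taf1c (0.74 ± 0.18, edgeR adjusted p = 0.048) and Taf1d (0.57 ± 0.13, edgeR adjusted p = 0.0406). Over all genes 2.26% were called higher and 2.29% lower in purified cells.

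In purified against cultured cells, assembly factors had 39 of 59 genes lower and 0 higher, with a median of -0.34, while the ribosomal proteins proper were at 0.40. Nop14 fell by 0.73, Nolc1 fell by 0.52 and Nop58 fell by 0.26 on the log2 scale. Mitochondrial ribosomal proteins had 26 of 77 lower and 3 higher, mTORC1 and related genes 10 of 26 lower and 2 higher, and genes of ribosome stress sensing 11 of 15 lower and 0 higher. The oligopyrimidine list had 6 of 29 higher and 4 lower, with a median of 0.08. Myc and its partners had 3 of 9 higher and 2 lower. Over all genes 22.1% were called higher and 21.4% lower in this comparison. The oligopyrimidine list's count of higher genes lay near that share.

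**Figure D5:**
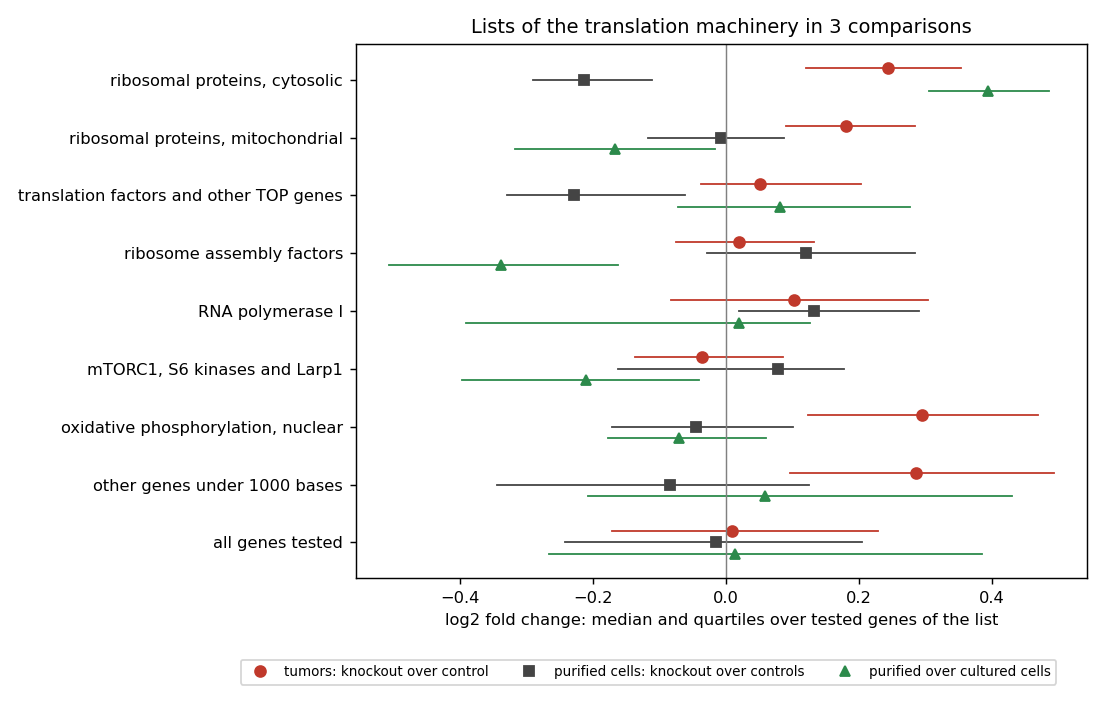
Median log2 fold change (symbols) with quartiles (lines) over the tested genes of 9 lists in 3 comparisons: tumors, purified cells, and purified over cultured cells; TOP stands for terminal oligopyrimidine. Cytosolic ribosomal proteins lie at 0.24 in tumors (the median of all members is near 0, at -0.03, with scaling along transcript length). They lie at -0.21 in purified cells and at 0.40 in purified over cultured cells, where assembly factors lie at -0.34.

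The authors' deposited tables, read as knockout over control, gave counts like those of edgeR in tumors and culture. In purified cells they had more members lower than the main edgeR fit. Of 87 members listed for tumors 53 were higher and 0 lower at an adjusted p under 0.05, with a median of 0.28. Of 87 listed in the authors' deposited table for purified cells 0 were higher and 6 lower, with a median of -0.22. The 53 include Rpl32l, at 0.69 with an adjusted p of 0.0147 in the authors' deposited table, although its expected count was 0 in each of the 24 libraries used here. In the authors' deposited table for cultured cells 0 of 86 were called, with a median of 0.12. The share of all genes called in these deposited tables was not counted here, so these member counts stand without a background.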

How the data were processed

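Per the submitters' processing notes, FastQC, STAR, RSEM and DESeq2 were used with the mm10 genome; versions are not given in the sources used here. The authors deposited, for each library, a table with the expected count, the TPM and the transcript length (other) of each gene, per the file headers. For 3 comparisons the authors deposited the log2 fold change and adjusted p-value of DESeq2; Sun1 is positive in them, so they are control over knockout, and signs were turned here. All 24 libraries were grouped by their labels, and 0 columns were left unmapped.

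Expected counts were rounded and tested with the quasi-likelihood F test of edgeR 4.0.16 in R 4.3.3 (TMM, filterByExpr with minimum count 10 and minimum total 15, robust), two-sided, with Benjamini-Hochberg adjustment over all genes tested and a threshold of 0.05. Standard errors were taken as the size of the log2 difference divided by the root of F. Printed CPM values use TMM over all 24 libraries. DESeq2 1.42.0, other scalings, no low-count filter, pseudogene rows added to their parents, a replicate block, a host content covariate and leaving out each library were alternatives. Length-smoothed scaling was added after seeing the data: in each library a lowess curve of non-members on log transcript length was added to the offsets. The edgeR steps were tested on simulated data.

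The members, lists and tests were chosen with earlier results of these data known. Named members are the 5 highest, 5 lowest and 5 of smallest p in tumors and in purified cells, the 3 highest and 3 lowest of the control line, difference and purified-against-cultured comparisons, the stalk and the paralogs, and 2 genes of each other list with the smallest p in tumors and in purified cells. Coordinates and sequences are from RefSeq (GRCm38.p6, the build of mm10). The least chi-square per gene between libraries of a group was 7.38, above the level of about 1 that recounting the same library would give. Depth limits rarely expressed paralogs only.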

Additional observations from a re-analysis of the deposited data

Results flagged for a closer look

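In knockout tumors, the sixth library stood apart for 2 members. It had 1510 CPM of Rpl41 where the next highest had 1120 CPM, and 194 CPM of Rps27l where the next highest had 158 CPM. The gap took up 0.681 and 0.683 of the group's range. In all, 30 groups of values were tested for such gaps, of which chance flags about 1 in 20. Without this library 39 members were called higher in tumors, as were 16.6% of all genes.

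The knockout effect differed between tumors and purified cells for 30 members, by the interaction test. Among the named members these were Rpl39 (0.97 on the log2 scale), Rps28 (0.89) and Rpl41 (0.89).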

How the results depend on the processing

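Of the values of named members under the alternatives, 370 of 449 kept their direction and side of the threshold, 28 lost the call, 39 gained it and 12 changed sign. Of the counts and medians, 310 of 380 stayed within the limits set. A count had to stay within 1.5 times. The limit for a median was an SD among libraries of a group, pooled over groups. That SD was of each library's median over ribosomal proteins proper, and in culture it came from the control libraries alone. The cause of the changes was not tested unless named. Length-smoothed scaling was an alternative chosen after seeing the data. In tumors it gave 9 members higher and 18 lower (median -0.025), beside 16.7% and 15.9% of all genes. In purified cells it gave 1 higher (3.17% of all genes), and between control lines 11 lower (9.06%, members' median 0.005). Against control line 2 it gave 3 higher and 7 lower (median -0.096), beside 11.6% and 11% of all genes. For the difference it gave 8 higher and 1 lower (median 0.087), beside 2.82% and 3.01%. The host content term left 0 higher in tumors (0.295% of all genes), with Rpl4 at 0.058 and Rpl28 at 0.025. Without a low-count filter, 3 members were lower in purified cells (2.26% of all genes) and 1 lower in culture (0.301%). That setting also gave 5 higher between control lines (5.25%) and 1 lower in purified against cultured cells (13%). In purified cells DESeq2 called 4 lower (4.61% of all genes). There 3 separate groups gave 1 higher and 16 lower, beside 10.5% and 10.1% of all genes. Control line 1 alone gave 3 higher and 14 lower, beside 11% and 12.8%. Control line 2 alone gave 10 lower, beside 8.85%, with Rpl36al at -0.043, Rpl37rt at -0.127 and Rps27l at -0.112. Library totals alone gave 1 higher and 15 lower against control line 2, beside 12.4% and 8.21% of all genes. They gave a difference of -0.003 for Rpl7l1. With control line 1 only, 16 members had a higher difference (4.82% of all genes) and Rpl7l1 was at -0.063.

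The replicate numbers did not pair the libraries (correlations of same-numbered libraries from -0.113 to 0.218 in tumors and from -0.064 to 0.063 in purified cells). With the replicate block 48 members were higher and 0 lower in tumors (median 0.273), beside 14.8% and 17.3% of all genes. In purified cells it gave 0 higher and 1 lower (median -0.21), beside 1.25% and 1.18%. Leaving out each library in turn gave 0 to 2 members lower in tumors (16.9% to 19.3% of all genes). In purified cells it gave 0 to 2 lower (0.242% to 2.24%). Between control lines it gave 0 to 25 higher (2.24% to 7.76%) and 0 to 7 lower (3.87% to 9.41%). Members' medians there were -0.021 to 0.256. Against control line 1 it gave 0 to 3 higher (2.67% to 10.2%) and 1 to 14 lower (2.97% to 11.9%). Against control line 2 it gave 1 to 51 lower (3.05% to 11.2%), with members' medians of -0.371 to -0.133. It gave 1 to 35 members with a higher difference (0.444% to 4.19% of all genes). In purified against cultured cells it gave 35 to 74 higher (16.8% to 21.7%) and 1 to 4 lower (16.7% to 21%). Members' medians there were 0.278 to 0.506. In purified cells Rpl37rt ranged from -0.042 to 0.259 and Rps27l from -0.008 to 0.259. For the difference, Rpl7l1 ranged from -0.042 to 0.088, Rps19 from -0.112 to 0.018 and Rps4l from -3.164 to 0.745. Depth limits Rps4l, Rpl37rt and Rps27rt, which had few counts.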
